A study of Caenorhabditis elegans with 2 samples.

Results

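The genes described are the translation factor and aminoacyl-tRNA synthetase genes of Caenorhabditis elegans, and the question is which of their promoters carried ChIP-seq signal of the tagged protein B0019.2. They were chosen by gene name among the protein-coding genes of the Ensembl annotation, taking the names that begin with eif, iff, ife, ifg or eef and the names made of a letter followed by ars. This gave 71 genes of 19973 protein-coding genes on the 6 nuclear chromosomes, namely 33 initiation factor genes, 6 elongation factor genes and 32 synthetase genes. The name rule keeps the eIF5A genes (iff) and eif-4A3, a subunit of the exon junction complex, with the initiation factors.

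Both libraries came from whole young adults collected at 63.5 h, grown from L1 larvae that had been starved after bleaching to synchronise them. The strain, RW12288, carries TY1, EGFP and 3xFLAG tags inserted by CRISPR at the B0019.2 gene, and the tagged protein was pulled down with anti-GFP. The libraries are biological replicates of 1 group from this single strain, so nothing could be compared between conditions and no p-value is given. The signal comes from whole animals, in which tissues cannot be told apart, and no control library was analysed here. The deposited lists hold peaks without read counts, so the depth of the libraries is unknown.

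Protein synthesis starts when initiation factors bring the initiator tRNA and the mRNA cap to the small ribosomal subunit and find the start codon. Elongation factors then deliver each charged tRNA and move the ribosome along the mRNA, and the synthetases join each amino acid to its tRNA. Genes of this kind are broadly used housekeeping genes, and in C. elegans many such genes lie in operons, where an annotated gene start can be a trans-splice site and not the place where transcription begins.

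For each gene, a summit (the base of highest signal in a peak) was looked for from 1000 bp before to 200 bp after the annotated gene start, which is called the promoter window here. The authors' conservative list from both libraries, the main list, held 900 peaks. The authors' longer ranked list of candidates held 55591 regions. For replicate 1 the authors' own thresholded list had 524 peaks, and for replicate 2 it had 496. Each library also had its own ranked list, of 45502 candidates for replicate 1 and 38525 for replicate 2. Ranks given for a replicate are places in that library's ranked list, and ranks in the main list are out of its 900 peaks. Signal values are the authors' own, on a scale that the sources used here do not state, and serve only to describe and rank peaks within a list. The irreproducible discovery rate (IDR) scores peaks by how high they rank and how well their ranks agree between inputs. A larger −log10 IDR means a more reproducible peak, and a small one can come with low ranks as well as with ranks that differ.

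The sequences around the summits were read from the genome (ce11, WBcel235) for 5 of the 8 genes with a summit in the main list or in the list of a replicate, because they show what lies under the signal at these promoters. Each covers the summit and 50 bp to either side, 101 bases in all, 5′ to 3′ on the strand of the gene, with motif matches in capitals. The eif-1 sequence is at chrII:4993947-4994047 on the minus strand and the eif-2Bgamma sequence at chrII:6968501-6968601 on the minus strand. The eef-1A.1 sequence is at chrIII:6972065-6972165 on the minus strand, the ears-2 sequence at chrIV:390440-390540 on the minus strand and the eef-1G sequence at chrV:10965661-10965761 on the plus strand.
eif-1: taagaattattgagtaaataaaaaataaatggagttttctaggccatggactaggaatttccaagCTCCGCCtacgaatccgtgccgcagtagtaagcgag
eif-2Bgamma: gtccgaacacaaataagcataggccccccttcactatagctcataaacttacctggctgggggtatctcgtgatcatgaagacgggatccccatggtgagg
eef-1A.1: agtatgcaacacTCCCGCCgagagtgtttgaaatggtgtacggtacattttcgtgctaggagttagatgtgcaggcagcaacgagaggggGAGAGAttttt
ears-2: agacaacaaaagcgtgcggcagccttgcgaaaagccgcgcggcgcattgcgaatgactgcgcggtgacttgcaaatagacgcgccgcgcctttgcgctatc
eef-1G: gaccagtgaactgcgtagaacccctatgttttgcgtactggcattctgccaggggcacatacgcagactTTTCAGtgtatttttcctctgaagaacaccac

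Of these windows, that of ears-2 was the richest in G and C, at 60.4%, and that of eif-1 the poorest, at 40.6%. The 7 genes with a main summit had a median of 48.5% (37.6% to 60.4%), against 47.5% over all 900 main peaks and 39.6% over the 12431 other candidates in promoter windows of protein-coding genes. The capitals mark CTCCGCC (GC box type) in eif-1 and TTTCAG (splice acceptor consensus) in eef-1G. In eef-1A.1 they mark GAGAGA (a simple repeat) and, read on the other strand, GGCGGGA (E2F type). The windows of eif-2Bgamma and ears-2 held none of the 13 motifs searched.

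Motifs were searched on both strands within 50 bp of the summit. CTCCGCC lay at 1 of the 7 summits, that of eif-1, against 2.67% of all main peaks and 1.71% of the other candidates. TTTCAG lay at 1 of 7, that of eef-1G, against 7.78% of main peaks and 18.1% of the other candidates. The box motif CCAAT lay at 2 of 7, those of eif-2gamma and eef-2, against 17.4% and 19.5%. The other motifs lay at 0 of the 7 summits, which says only that these letters are not in these windows. Among them, CACGTG (E-box) was at 2.78% of main peaks and 2.27% of the other candidates, GGCGGGA at 2.44% and 1.03%, and GAGAGA at 11.7% and 7.9%. The homopolymer TTTTTTT was at 11% and 14.7%, and TATAAA (core promoter type) at 5.33% and 8.95%. The bZIP half-site type TGACGT was at 2.56% and 3.62%, the motif ATCGAT at 2.56% and 3.57%, and GATAAG, a zinc finger factor type, at 2.67% and 4.17%. TGTTTAC (forkhead type) was at 1.44% and 1.14%. GTTCGANNC, the B box of tRNA genes, was at 6.78% of main peaks and 0.861% of the other candidates.

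A main summit lay in the promoter window of 7 of the 71 genes, a share of 9.86% (exact 95% binomial interval, 4.06% to 19.3%), against 766 of 19973 protein-coding genes, or 3.84%. The 7 genes were eif-1, eif-2gamma, eif-2Bgamma and eif-3.C among the initiation factors, eef-1G and eef-2 among the elongation factors, and ears-2 among the synthetases. By class the counts were 4 of 33 initiation factor genes (12.1%, 3.4% to 28.2%), 2 of 6 elongation factor genes (33.3%, 4.33% to 77.7%) and 1 of 32 synthetase genes (3.12%, 0.0791% to 16.2%). The intervals of the classes overlap one another, and those of the initiation and synthetase genes include the share of all protein-coding genes. The other thresholded list of both libraries added eef-1A.1 and gave 8 of 71 (11.3%), against 3.79% of all protein-coding genes.

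The libraries differed in how many of the genes passed their own threshold. The list of replicate 1 held a summit at 4 of 71 genes (5.63%, 1.56% to 13.8%), against 2.61% of all protein-coding genes. The list of replicate 2 held one at 8 of 71 (11.3%, 4.99% to 21%), against 2.44%. The genes in both were eif-2Bgamma, eif-3.C, eef-1G and eef-2, while eif-1, eif-2gamma, ears-2 and eef-1A.1 were in the list of replicate 2 without being in that of replicate 1. Thus 4 of the 7 genes with a main summit (57.1%) were in both lists and 0 in neither, against 361 of 766 protein-coding genes (47.1%) in both and 200 (26.1%) in neither.

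In the longer ranked list, 50 of the 71 genes (70.4%, 58.4% to 80.7%) had a candidate in the window, against 10361 of 19973 protein-coding genes, or 51.9%. A candidate lay at 29 of 33 initiation factor genes (87.9%, 71.8% to 96.6%), at 6 of 6 elongation factor genes (lower bound 54.1%) and at 15 of 32 synthetase genes (46.9%, 29.1% to 65.3%). The interval of the initiation factor genes does not overlap that of the synthetase genes in this list, but it does in both single libraries. The ranked list of replicate 1 held a candidate at 27 of 33 initiation (64.5% to 93%), 6 of 6 elongation and 17 of 32 synthetase genes (34.7% to 70.9%). In that of replicate 2 these were 27 of 33 (64.5% to 93%), 6 of 6 and 18 of 32 (37.7% to 73.6%). Since a candidate lies in the window of more than 44% of all protein-coding genes in each of these lists, its presence alone separates few genes from the rest.

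**Figure D1:**
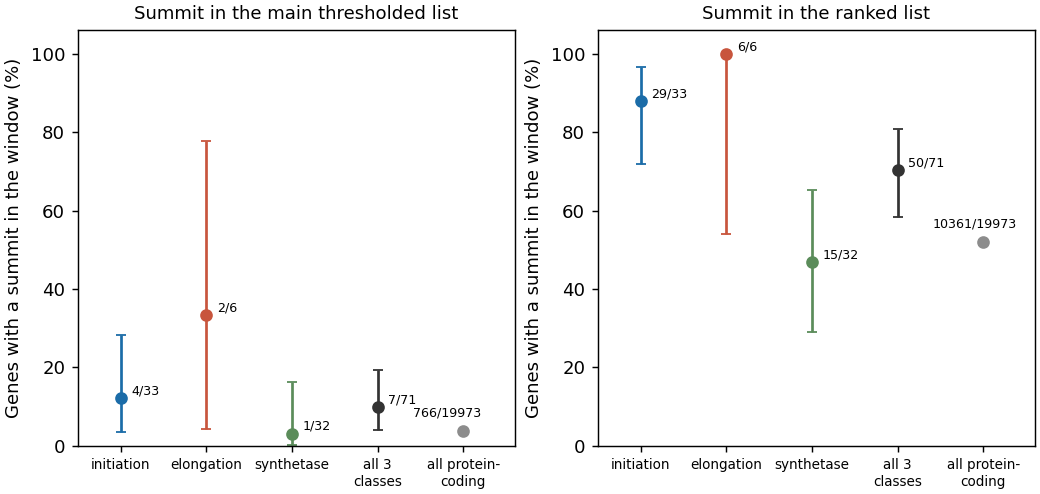
Share of genes whose promoter window held a summit (vertical axis, %), by class, in the main thresholded list (left) and the ranked list of candidates (right). Points carry the number of genes and bars are exact 95% binomial intervals. In the ranked list, 29 of 33 initiation factor genes and 15 of 32 synthetase genes had a candidate, against 51.9% of all protein-coding genes.

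The genes with a candidate had a median signal value of 40.7 for their strongest candidate (range 16.9 to 164, n = 50 genes), against 32.9 for all protein-coding genes with a candidate (quartiles 25.6 and 42.8, n = 10361). Of the 50, 30 lay above 32.9, namely 18 of 29 initiation factor genes, 5 of 6 elongation factor genes and 7 of 15 synthetase genes. The class medians were 41.9 for initiation, 73.5 for elongation and 30.6 for synthetases. Among main peaks their median signal value was 103 (87.2 to 164, n = 7), against 107 for protein-coding genes with a main summit.

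**Figure D2:**
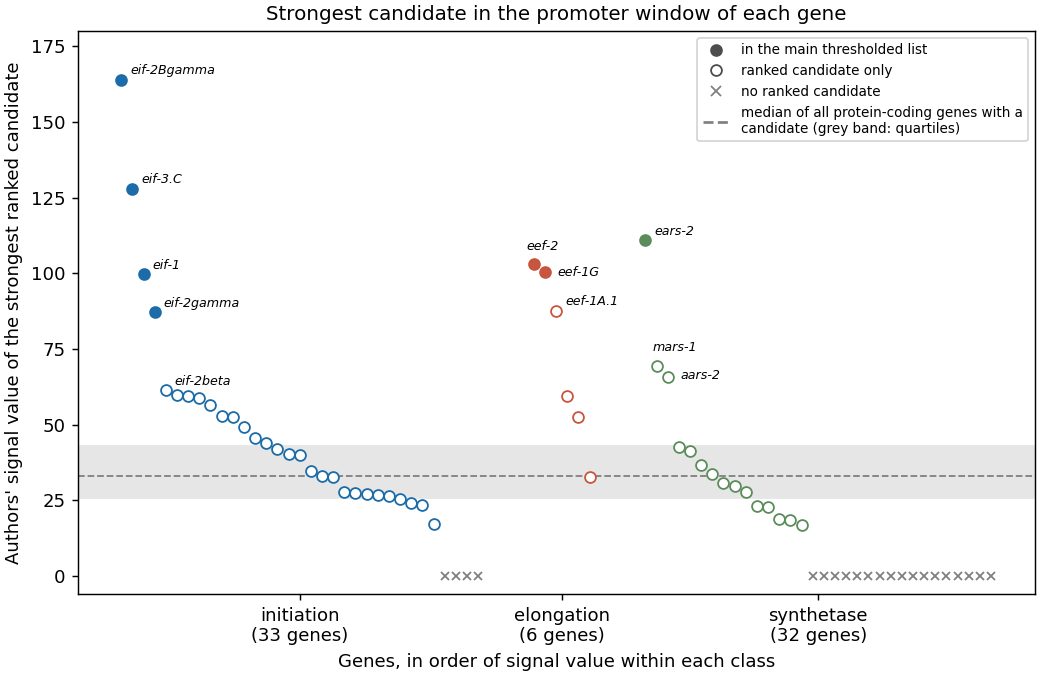
Signal value of the strongest ranked candidate in the promoter window of each of the 71 genes (vertical axis, authors' scale), in falling order within each class (horizontal axis). Filled points are main peaks, open points candidates outside the main list and crosses genes without a ranked candidate. The 7 main peaks lie between 87.2 and 164, and 17 of the 21 crosses are synthetase genes. The share of synthetase genes with a candidate, 46.9%, is near the 51.9% of all protein-coding genes.

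Among the initiation factors, the highest signal was at eif-2Bgamma, a subunit of eIF2B, the exchange factor that recharges eIF2 with GTP. The gene lies on the minus strand of chromosome II at 6965800 to 6967648, and the 270 bp peak at 6968416 to 6968685. The candidate there had a signal value of 80.9 in replicate 1 (rank 184) and 69.4 in replicate 2. In the main list its value was 164, at rank 133 of 900, with a −log10 IDR of 4.23. The summit was 903 bp upstream of the gene start, the farthest of the 7, and lay inside other genes. It fell in an exon of the non-coding gene C15F1.14 and of mir-1831 and sup-39, both annotated as snRNA, and in an intron of the protein-coding gene C15F1.5. The start of mir-1831 was at the summit itself (0 bp) and that of sup-39 was 7 bp away, so the peak lies at the start of small non-coding genes as well as in the window of eif-2Bgamma. The other eIF2B genes had candidates in 4 of 4 cases, against 51.9% of all protein-coding genes, without reaching the main list. The highest of these was at eif-2Bdelta, with 25.7 in replicate 1, 30.6 in replicate 2 and 59.7 in the ranked list (IDR 0.0729).

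The peak at eif-3.C, a core subunit of the eIF3 scaffold that binds the small ribosomal subunit, was the next highest. The gene lies on the minus strand of chromosome I at 9976426 to 9979662, and the peak at 9979749 to 9980018. Its signal value was 52.5 in replicate 1 (rank 489) and 72.2 in replicate 2 (rank 212). In the main list it was 128, at rank 233, with a −log10 IDR of 3.67. The summit lay 222 bp upstream, in the 400 bp between eif-3.C and sys-1, a beta-catenin gene on the same strand, and no other gene had it in its window. Of the 11 eIF3 genes, eif-3.C alone had a main summit, against 3.84% of all protein-coding genes. A candidate lay at 9 of the 11, against 51.9%, with eif-3.I and eif-3.L having none in the ranked list.

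The gene eif-1, whose product guards the choice of the start codon, lies on the minus strand of chromosome II at 4990831 to 4993580, and its peak at 4993862 to 4994131. The signal value was 42.6 in replicate 1 (rank 832) and 53.5 in replicate 2 (rank 403). It was 99.7 in the main list, at rank 412, with a −log10 IDR of 2.99. The candidate of replicate 1 was not in that library's thresholded list. The summit was 417 bp upstream of eif-1 but 1 bp from the start of the divergent gene vps-24, an ESCRT-III subunit, and also fell in the window of pigb-1, 920 bp away.

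The gene eif-2gamma encodes the GTPase subunit of eIF2, which carries the initiator tRNA. It lies on the plus strand of chromosome I at 2313271 to 2315992, with the peak at 2313042 to 2313311. The signal value was 40.4 in replicate 1 (rank 950), outside that library's thresholded list, and 50.1 in replicate 2 (rank 461). In the main list it was 87.2, at rank 545, with a −log10 IDR of 2.86, the lowest of the 7. The summit lay 94 bp upstream, in the 312 bp that separate the gene from tbca-1, a tubulin cofactor gene on the same strand, and in the window of no other gene. Of the other eIF2 genes, eif-2beta came nearest to the threshold, with 41.1 in replicate 1, 26.3 in replicate 2 and 61.4 in the ranked list (IDR 0.0251, 93 bp upstream). The third subunit gene, eif-2alpha, had a candidate below the main list too.

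The remaining initiation factor genes had no main summit. Of the 6 cap-binding genes (the eIF4E genes ife-1 to ife-5 and the eIF4G gene ifg-1), 5 had a ranked candidate and 0 a main summit. Both eIF5A genes, iff-1 and iff-2, had a candidate. Of the 6 other eif genes, 5 had a candidate, and eif-1 alone had a main summit. For all protein-coding genes these shares were 51.9% and 3.84%, and groups this small say little beside them. The initiation factor genes without a ranked candidate were eif-2D, eif-3.I, eif-3.L and ife-5.

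Among the elongation factors, a main peak lay at eef-2, the GTPase that moves the ribosome along the mRNA. The peak had a signal value of 54 in the ranked list of replicate 1 (rank 458) and 45.2 in that of replicate 2 (rank 588). The gene lies on the plus strand of chromosome I at 9163531 to 9166952, and the peak at 9163344 to 9163613. In the main list the value was 103, at rank 377, with a −log10 IDR of 3.18. The summit lay 52 bp upstream of eef-2 and 213 bp from the start of the divergent gene clsp-1, a homologue of the checkpoint protein claspin.

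The gene eef-1G, a structural subunit of the eEF1B exchange complex, lies on the plus strand of chromosome V at 10965719 to 10967922, and its peak at 10965576 to 10965845. The signal value was 54.5 in replicate 1 (rank 451), with its summit 49 bp from the main one, and 52.7 in replicate 2 (rank 415). In the main list it was 100.4, at rank 405, with a −log10 IDR of 3.37. The summit was 8 bp upstream, the nearest of the 7 to its gene start. It also fell in the window of the divergent gene ctf-4, a replisome factor gene (172 bp), and of the small nucleolar RNA gene F17C11.15 (987 bp). The other eEF1B genes, eef-1B.1 and eef-1B.2, had candidates below the main list.

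The gene eef-1A.1 encodes eEF1A, which delivers charged tRNAs to the ribosome, and its rank differed between the libraries more than that of the other genes in the thresholded lists. It lies on the minus strand of chromosome III at 6970026 to 6971712, with the candidate at 6971980 to 6972249. The signal value was 29.9 in replicate 1 (rank 3216) and 56.9 in replicate 2 (rank 345), and the list of replicate 2 held it. In the ranked list the value was 87.6, just above that of eif-2gamma. Its IDR was 0.0101 (−log10 IDR 1.997), and the lowest −log10 IDR of a main peak was 2.0007. However, 88 candidates at or above 2.0007 were not in the main list either, so this value alone does not settle which candidates that list held. The summit lay 403 bp upstream, 30 bp from the start of the microRNA gene cel-mir-5549 and 138 bp from the start of the divergent gene rfc-4, a subunit of the clamp loader of DNA replication. The paralogue eef-1A.2 had 38.2 in replicate 1 (rank 1126), 13.5 in replicate 2 (rank 30380) and 59.5 in the ranked list, with an IDR of 0.793. The summits compared there lie at different positions, −289 bp from the gene start in replicate 1 and −515 bp in replicate 2.

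Among the synthetases, ears-2, a glutamyl-tRNA synthetase gene, was the only one with a main summit. It lies on the minus strand of chromosome IV at 388686 to 390468, and the peak at 390355 to 390624. The signal value was 54.7 in replicate 1 (rank 444) and 59.5 in replicate 2 (rank 315). In replicate 1 its −log10 IDR was 1.91, and that library's thresholded list did not hold it. In the main list it was 111, at rank 321, with a −log10 IDR of 3.53. The summit lay 22 bp upstream of ears-2 and 70 bp from the start of the divergent gene uncp-18.

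The synthetase genes next to it in signal value were mars-1, for methionine, and aars-2, for alanine. At mars-1 the signal value was 46.6 in replicate 1 (rank 644), 23.2 in replicate 2 (rank 6643) and 69.5 in the ranked list (IDR 0.0913, 238 bp upstream). At aars-2 it was 35.1 in replicate 1 (rank 1585), 29.9 in replicate 2 (rank 2111) and 65.7 in the ranked list (IDR 0.0124, 325 bp upstream). Both therefore had a candidate in each library, though in neither library's thresholded list. By number, 0 of 20 synthetase genes whose name ends in the number 1 had a main summit and 9 had a candidate. For those ending in 2 it was 1 of 11, with 5 candidates, and fars-3 had a candidate without a main summit. Over all protein-coding genes the shares were 3.84% for a main summit and 51.9% for a candidate.

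The 17 synthetase genes without a ranked candidate were cars-1, dars-2, ears-1, fars-2, iars-1, iars-2, kars-1, lars-1, lars-2, nars-1, nars-2, pars-1, pars-2, qars-1, rars-1, wars-1 and yars-1. For 9 of the 71 genes no candidate lay in the window in the main ranked list or in that of either library, namely cars-1, fars-2, iars-1, lars-1, nars-2, rars-1 and yars-1 among the synthetases, and eif-3.L and ife-5 among the initiation factors. The matching share of all protein-coding genes is not given here, so the count is no trait of these genes. List by list, 51.9% (main), 48.5% (replicate 1) and 44% (replicate 2) of all protein-coding genes had a candidate. These lists hold only candidates that the authors kept, so a missing candidate does not show that signal was absent.

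**Figure D3:**
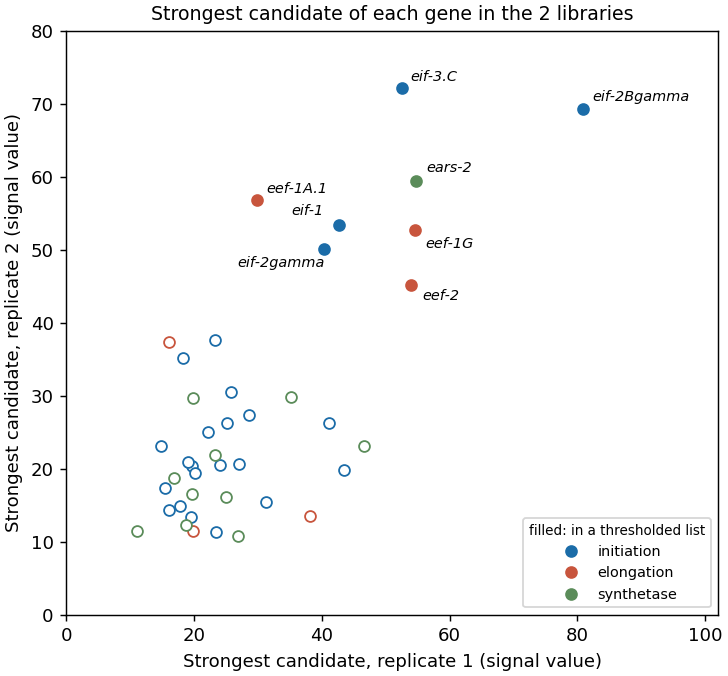
Signal value of the strongest candidate in the promoter window in replicate 1 (horizontal axis) and replicate 2 (vertical axis), on the authors' scale, for the 41 genes with a candidate in both libraries. Filled points are the 8 genes in a thresholded list. They lie above 40 in both libraries apart from eef-1A.1, which has 29.9 in replicate 1 and 56.9 in replicate 2.

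Across the 41 genes with a candidate in both libraries, the Spearman correlation of the strongest candidate's signal value was 0.525, against 0.495 over 5784 protein-coding genes. Both are correlations across genes, given as a description, since the genes are not independent replicates. The lists of the single libraries were made separately, so their values are set side by side and not tested.

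The main summits of the 7 genes lay upstream of the gene start in 7 of 7 cases, at a median of 94 bp (8 to 903 bp), against a median of 255 bp upstream for the 766 protein-coding genes with a main summit, of which 95.4% had it upstream. Within 100 bp of the start were 4 of 7 (57.1%), those of eef-1G, ears-2, eef-2 and eif-2gamma, against 16.8% of the 766. In the ranked list the medians were 309.5 bp upstream for the 50 genes and 333 bp upstream for all protein-coding genes. The median moved with the list and the genes in it, and stood at −171 bp from the start over the 8 genes in the list of replicate 2 and at −146.5 bp over the 4 in that of replicate 1.

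**Figure D4:**
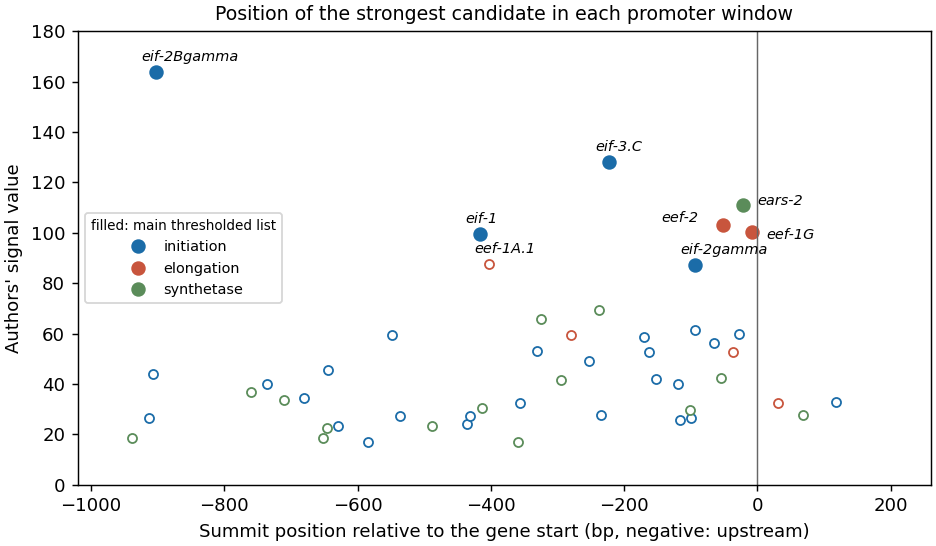
Position of the strongest candidate relative to the gene start (horizontal axis, bp, negative upstream) and its signal value (vertical axis, authors' scale) for the 50 genes with a ranked candidate. Filled points are main peaks, of which 4 of 7 lie within 100 bp of the start and that of eif-2Bgamma lies 903 bp upstream.

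Several of these promoters are shared with a neighbour. An opposite-strand protein-coding gene started within 1000 bp upstream of 31 of the 71 genes (43.7%), against 17.7% of all protein-coding genes, and of 4 of the 7 with a main summit (57.1%), against 49.5% of protein-coding genes with one. By class, such a divergent partner stood upstream of 16 of 33 initiation factor genes, 4 of 6 elongation factor genes and 11 of 32 synthetase genes. Among the genes with a partner, 4 of 31 (12.9%) had a main summit, against 10.7% of all protein-coding genes with a partner. Among those without, it was 3 of 40 (7.5%), against 2.35%. At the 4 shared promoters, of eif-1, eef-2, eef-1G and ears-2, the summit cannot be assigned to either gene. At eif-2gamma, eif-3.C and eif-2Bgamma a gene on the same strand ended within 1000 bp upstream. These are 3 of the 7 (42.9%), against 23.4% of protein-coding genes with a main summit. Among the 71 genes it was so at 26 (36.6%), against 28.9% of all protein-coding genes.

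**Figure D5:**
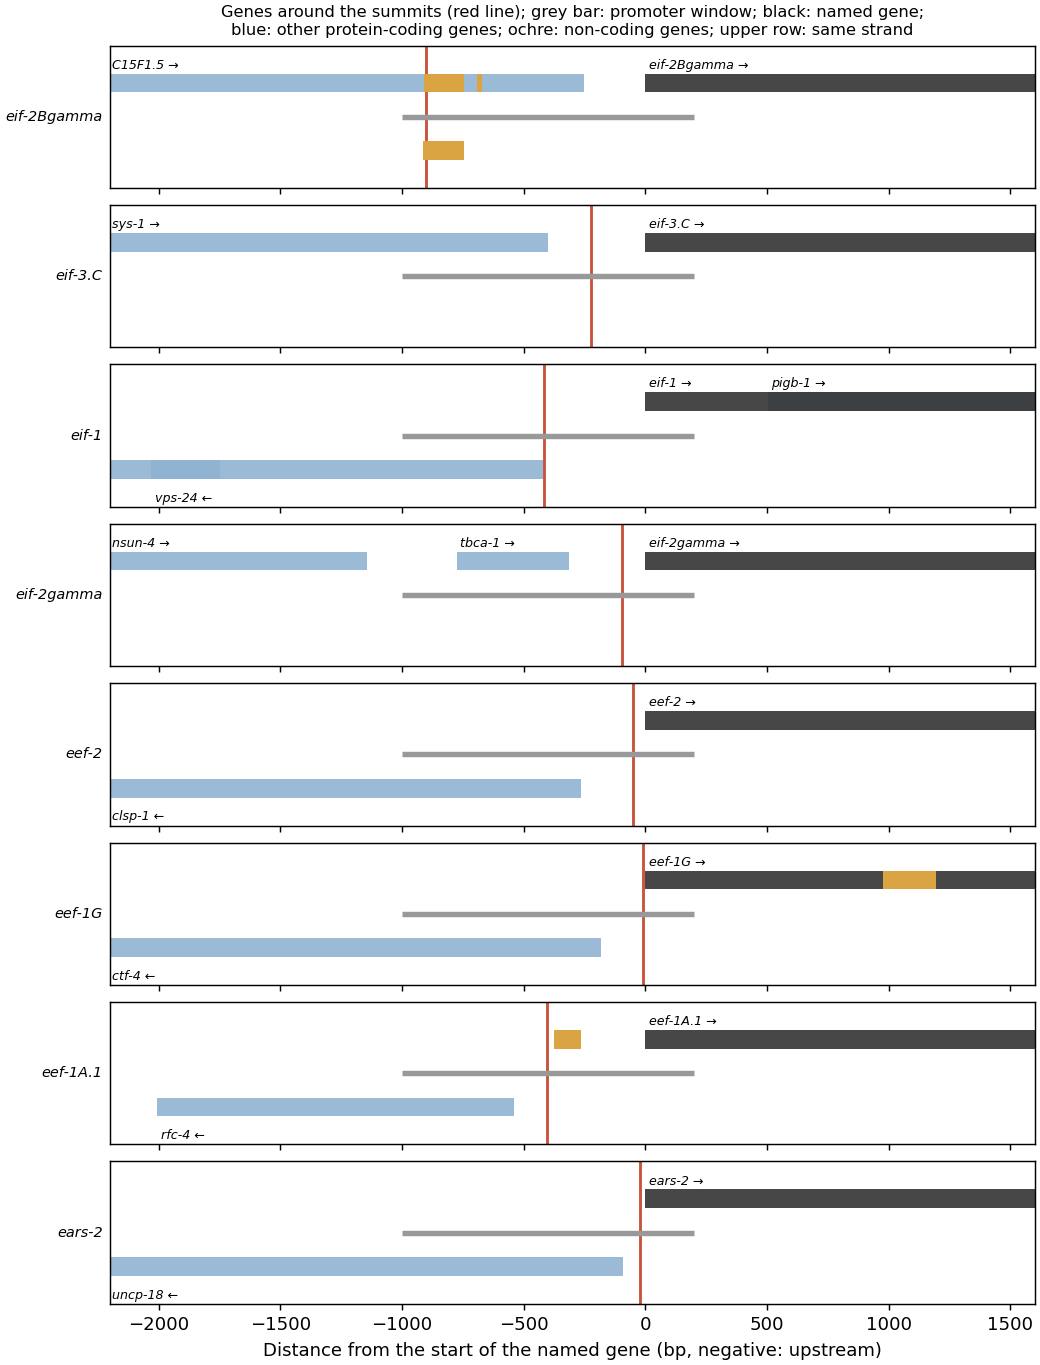
Genes around the summit (red line) of the 8 genes in a thresholded list, drawn in the direction of the named gene, with distance from its start in bp (negative upstream) on the horizontal axis. The named gene is black, other protein-coding genes blue, non-coding genes ochre, and the grey bar is the promoter window. The summits of eif-1, eef-2, eef-1G, ears-2 and eef-1A.1 lie between divergent genes or at the partner's start, and that of eif-2Bgamma lies in other genes.

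When each summit was given only to the nearest gene start of any kind, 5 of the 7 genes kept it, against 434 of the 766 protein-coding genes, and eif-1 lost it to vps-24 and eif-2Bgamma to mir-1831. With protein-coding genes alone, 6 of 7 kept it, against 521 of 766. By chromosome, main summits lay at 3 of 21 of the genes on I (against 6.46% of all protein-coding genes there), 2 of 17 on II (3.94%) and 0 of 12 on III (7.35%). They lay at 1 of 10 on IV (3.93%), 1 of 8 on V (2.18%) and 0 of 3 on X (0.439%). No difference between chromosomes was tested.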

How the data were processed

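ChIP-seq peak lists of 2 libraries of 1 group were used, on assembly ce11, per the labels. The authors deposited a thresholded and a ranked list for each library and for both together, and the conservative list of both was the main one, per the deposited readme texts. Neither aligner nor peak caller is given in the sources used here. The deposited signal of a peak has no stated scale. Global IDR was deposited as −log10 in ranked lists and read by the usual IDR column order. Lists of both libraries gave pooled values with no SD, and 16 further columns of the ranked ones, tied to no sample, were not used.

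Gene starts came from Ensembl release 115 (WBcel235). A gene was counted when a summit lay from 1000 bp upstream to 200 bp downstream of its start. A replicate peak was shared at 50% overlap of either peak. Shares have exact (Clopper-Pearson) 95% binomial intervals, which cover counting error only, and neighbouring genes are not independent. No test between groups was possible. The code for assignment was run on simulated peaks placed at known distances from gene starts, which checks the code and not the annotation. Python 3.11.15 was used with pandas 2.3.3, numpy 2.4.6, matplotlib 3.10.9 and scipy 1.17.1. Named with values were genes with a summit in the main list or in the list of a replicate, and the 5 others with the strongest candidates. The genes, lists and motifs were chosen with earlier results of these data known.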

Additional observations from a re-analysis of the deposited data

How the results depend on the processing

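Each count and median was recomputed under 10 other settings. Of the 80 values so obtained, overlap rules included and motifs left out, 61 stayed within 1.5 times the value (for the median position, within 1 SD between the libraries) and 19 moved, and the cause was not tested. With the list of a single library, the 71 genes had 4 to 8 with a summit (main list 7), initiation factor genes 2 to 4 (4), synthetase genes 0 to 1 (1) and all protein-coding genes 487 to 521 (766). The lower counts of the 71 genes came without replicate 2, whose removal lost eif-1, eif-2gamma and ears-2. With each summit kept for its nearest start of any gene class, initiation factor genes had 2 and all protein-coding genes 434. Among the 450 main peaks of highest signal value, all protein-coding genes had 491, and eif-2gamma was lost. A window of 2000 bp upstream and 500 bp downstream gave 2 synthetase genes, adding nars-1. The median summit position of the genes, −94 bp, was −158 bp in the other list, −137 bp among those 450 peaks, −171 to −146.5 bp in the single libraries, −73 bp with 500 bp upstream and 100 bp downstream, −158 bp in the wider window, −52 bp for the nearest start of any class and −73 bp for the nearest protein-coding start. The other translation genes, 4 in the main list, were 2 in the narrower window, 1 by nearest start of any class and 1 by nearest protein-coding start. All 3 overlap rules for a shared replicate peak gave 7. Within 100 bp of the summit, TTTCAG was at 3 genes and a T run at 1. Shares over all main peaks and the other candidates are given only for the 50 bp search, so these counts have none beside them. No paired analysis was possible because the libraries form 1 group. The median signal was not computed in the lists of single libraries, whose scale differs. Without read counts, the depth at which weak candidates are lost is unknown.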

Other observations

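Translation genes that the name rule does not take were listed as well: 21 genes with varied roles in translation and its control, of which 20 were matched in the annotation. A main summit lay in the promoter window of 4 of the 20, against 3.84% of all protein-coding genes. The genes were drr-2, an eIF4H-like factor gene, larp-1, a La-related RNA-binding protein gene, ifet-1, the 4E-T homologue that represses translation, and erfa-3, the gene of release factor eRF3. Of these, drr-2, larp-1 and ifet-1 lie on chromosome III, where 7.35% of protein-coding genes had a main summit, and erfa-3 on V, where 2.18% had. The 21 genes were listed with earlier results of these data known. When each summit went only to its nearest protein-coding start, 1 of the 4 kept it, erfa-3, and in the window of 500 bp upstream and 100 bp downstream 2 did, drr-2 and erfa-3.

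At drr-2 the strongest candidate had a signal value of 122 in replicate 1 and 121 in replicate 2, and 240.2 in the main list, above all 7 of the main peaks described before. At larp-1 the values were 103 in replicate 1, 99.6 in replicate 2 and 204 in the main list. At ifet-1 they were 76.1, 60.3 and 137 in the same order. At erfa-3 they were 48.1, 33.7 and 75.2, and neither library's thresholded list held it. The genes inf-1, dhps-1 and tsfm-1 had no candidate in the main ranked list.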
